A study of Mus musculus with 10 samples.

Results

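Interferon response genes were followed here through the physical contacts of their promoters. The set held 38 genes, and a gene was kept where the HindIII fragment (mm10) holding the start or end of the gene was listed as the captured end, or bait, of a contact. By that rule 28 of the 38 genes remained, on 26 of the 13024 bait fragments in the series: 25 of 12186 in progenitors and 15 of 6746 in neutrophils. These fragments carried 233 of the 88624 pairs listed for progenitors and 59 of the 25622 pairs listed for neutrophils.

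Contacts were measured by promoter-capture Hi-C, which ligates crosslinked DNA fragments that lie close together in the nucleus and then enriches the ligation products that hold a promoter. Haematopoietic stem and progenitor cells (HSPCs), isolated as the lineage-negative fraction of C57BL/6 bone marrow with a depletion kit, came from wild-type (WT), Npm1flox-cA/+;Mx1-Cre+ (Npm1c), Flt3ITD/+ (Flt3-ITD) mice and from double mutants (DM), which were Npm1flox-cA/+;Flt3ITD/+;Mx1-Cre+, and neutrophils came from WT mice with an isolation kit. Each of the 5 groups had 2 biological replicates. Npm1c is the leukaemia form of nucleophosmin, displaced from the nucleolus into the cytoplasm. Flt3-ITD carries an internal tandem duplication in a cytokine receptor, which signals without its ligand. The Cre recombinase in the Npm1c and DM mice is driven by the Mx1 promoter, itself an interferon-inducible promoter, and the labels name no Cre for the WT and Flt3-ITD mice. Effects of Mx1-Cre and of Npm1c therefore cannot be told apart in these libraries, and the sources used here do not say how Cre was induced.

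Type I interferon binds Ifnar1 and Ifnar2 and type II interferon binds Ifngr1 and Ifngr2. Janus kinases at these receptors then pass the signal to the nucleus. Type I signalling acts through the interferon-stimulated response element (ISRE), where Stat2 and Irf9 act, and type II signalling acts through the gamma-activated site (GAS). The induced genes include viral RNA sensors, further regulatory factors, antiviral effectors, GTPases that attack pathogen vacuoles, and the machinery that cuts and loads peptides for antigen presentation. In bone marrow, interferon is known to draw quiescent stem cells into cycle.

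The promoter letters were examined first, because 23 of the 28 genes had a bait that held the promoter end of the gene. RefSeq promoter windows (GRCm38.p6, 250 bases before to 50 after the start) were found for 31 of the 38 genes. The ISRE core was searched on both strands as GAAA, any 2 bases, and GAAA again, and was found in 17 of the 31 genes (54.8%), against 1079 of 27025 genes (3.99%) and 3.44% of all 32851 windows. The GAS letters TTCNNNGAA, which read the same on both strands, were found in 10 of the 31 genes (32.3%), against 9.55% of all genes. Among the 23 genes with their start site in a bait, 13 had the ISRE core and 8 had the GAS letters. A match of letters is a description and not a measured site. The 7 stretches that follow lie before the start site of genes whose contacts are described further on, with ISRE matches in capitals, 5′ to 3′ on the strand of the gene. They are at chr4:156200860-156200911 (Isg15, minus strand), chr19:34640770-34640828 (Ifit1, plus), chr12:26456548-26456587 (Rsad2, minus), chr11:48871421-48871465 (Irgm1, minus), chr11:58199492-58199546 (Igtp, plus), chr11:58214883-58214937 (Irgm2, plus) and chr3:142620589-142620628 (Gbp2, plus).
Isg15: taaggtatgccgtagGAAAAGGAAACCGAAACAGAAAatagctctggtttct
Ifit1: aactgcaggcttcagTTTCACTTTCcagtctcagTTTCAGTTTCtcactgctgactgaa
Rsad2: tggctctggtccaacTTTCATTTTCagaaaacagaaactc
Irgm1: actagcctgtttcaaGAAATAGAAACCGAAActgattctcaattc
Igtp: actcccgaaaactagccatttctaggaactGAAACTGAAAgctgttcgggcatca
Irgm2: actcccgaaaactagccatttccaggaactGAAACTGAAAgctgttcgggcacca
Gbp2: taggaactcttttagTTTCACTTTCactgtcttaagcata

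Isg15 had 3 overlapping matches and Irgm1 had 2, while the 2 matches of Ifit1 lay apart. The stretches of Igtp and Irgm2, neighbouring GTPase genes, were identical at 53 of 55 bases, and in both a GAS match began 11 bases before the ISRE match.

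For every pair and library the files give 1 interaction score of 0 or more. Its reference is not given in the sources used here. There are no read counts in them, which leaves the depth of a score unknown, and the spread between the 2 replicates is the only measure of precision. A progenitor pair is listed when at least 1 of the 4 groups scored 5 or more in both replicates. Every pair of the neutrophil list was at 5 or more in both neutrophil libraries. A pair listed through one group is thereby favoured to look higher there. For this reason promoter fragments were compared on the mean of log2(score + 1) over their outside pairs, meaning pairs listed through a group that the comparison does not use, where at least 3 existed. The interaction and the Mx1-Cre contrast have no outside group and use all listed pairs. As a check of the cell labels, pairs of marker gene fragments at 5 were counted in both WT HSPC libraries and in neutrophils. Neutrophil markers had 26 and 65, stem and progenitor markers 8 and 3, and erythroid markers 21 and 9. The other marker sets hardly differed between the cell types. T and NK cell markers had 12 and 10, and macrophage and dendritic cell markers 6 and 7. B cell markers had 1 and 1, and plasmacytoid dendritic cell markers 1 and 0. Kit, Cd34 and 3 more of the 10 stem cell markers had no listed bait, and a contact is not a level of expression.

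Contacts were spread very unevenly over the interferon genes. The median fragment had 5 listed pairs in HSPCs, against 4 over all baits, but 5 fragments held 146 of the 233 pairs (62.7%) and 6 fragments had 1 pair each. The 5 were those of Irgm1 with 59 pairs, Ddx58 with 26, Psmb8 with 22, Isg15 with 21 and Igtp with 18. Next came Irf7 with 11, Ifit2 with 9, and Rsad2, Isg20 and Trim25 with 8 each. The median distance of the 233 pairs was 253 kb, against 218 kb over all listed pairs. The other end held an end of a gene in 29.6% of the pairs, against 28.5% over all.

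Of the 233 pairs, both replicates were at 5 or more in 100 (42.9%) for WT, 103 (44.2%) for Npm1c, 145 (62.2%) for Flt3-ITD and 122 (52.4%) for DM. Over all listed pairs the shares were 34.9%, 41.8%, 51.2% and 48.8%. Flt3-ITD had the highest share in both sets. Pairs at 5 in all 4 groups made up 18% of the interferon gene pairs and 10.2% of all pairs. These shares rest largely on the Irgm1 and Isg15 fragments, which held 25 of the 42 pairs at 5 in all groups. Without both, a comparison chosen after seeing the data, the shares of the remaining 153 pairs were 32.7% for WT, 32.7% for Npm1c, 51% for Flt3-ITD and 52.9% for DM, and 11.1% were at 5 in all 4 groups. In single libraries the share at 5 for the interferon genes was 59.7% and 52.4% for WT, 51.5% and 64.8% for Npm1c, 71.7% and 74.7% for Flt3-ITD, and 64.4% and 63.5% for DM. The Flt3-ITD libraries were the highest and did not overlap with the rest. Over all listed pairs they were also the highest, at 64.1% in both, against at most 61.8% in any other library.

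**Figure D1:**
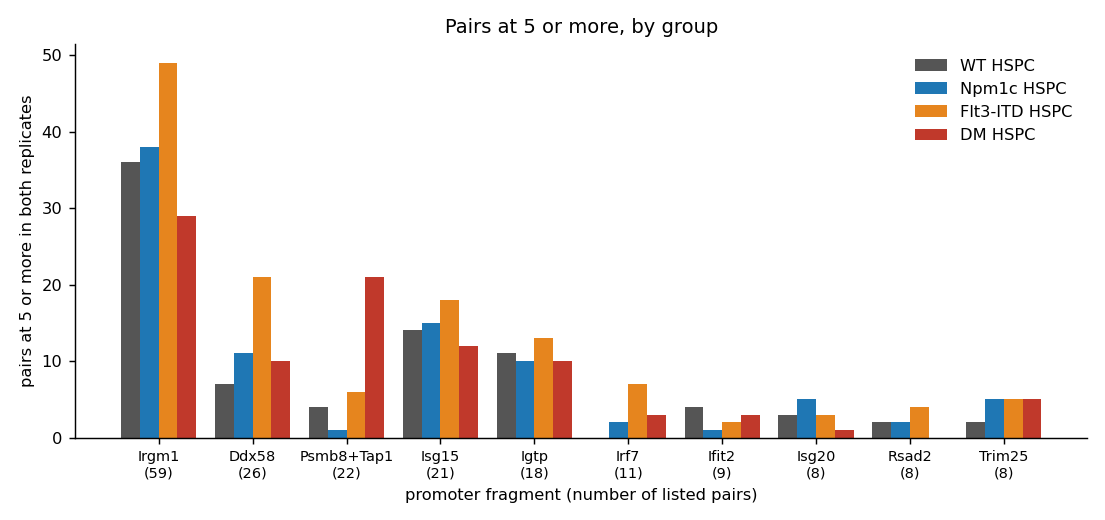
Number of listed pairs at 5 or more in both replicates (vertical axis) for the 10 promoter fragments with most listed pairs (horizontal axis, number of listed pairs in brackets), with 1 bar per HSPC group. Irgm1 has the most in every group (36, 38, 49 and 29), Ddx58 is highest in Flt3-ITD (21) and Psmb8 is highest in DM (21 of 22).

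Among the sensors of viral RNA, Ddx58 (RIG-I, which detects uncapped RNA) had the clearest pattern. Its fragment at chr4:40234772-40242234 holds the promoter, and 24 of its 26 pairs reached 431 to 490 kb away on one side. On the 16 pairs brought in by an outside group, mean log2(score + 1) was 2.57 and 2.42 in WT, 2.97 and 3.25 in Npm1c, 3.04 and 3.27 in Flt3-ITD, and 2.96 and 2.81 in DM. These 16 pairs were listed through Npm1c or DM, which favours those libraries, so only WT and Flt3-ITD are compared on them, and they did not overlap. The Flt3-ITD minus WT difference was 0.66 (SE 0.17), with an adjusted p of 0.077 in limma, short of the threshold of 0.05. It passed with at least 10 pairs per fragment (adjusted p = 0.036). It also passed with all listed pairs (0.67, adjusted p = 0.040), but 21 of those 26 were at 5 in Flt3-ITD, which favours it. It did not pass with quantile normalization (0.41, adjusted p = 0.31), no variance trend (adjusted p = 0.13) or the replicate block (adjusted p = 0.10). Nor did it pass with at least 1 pair per fragment (adjusted p = 0.12) or a pseudocount of 5 (adjusted p = 0.077). Leaving out 1 WT or Flt3-ITD library gave differences from 0.54 to 0.78. On the 22 pairs free of selection for DM, WT had 2.62 and 2.33 and DM 2.56 and 2.68, which overlap (difference 0.15, SE 0.15, adjusted p = 0.63). Over all 26 pairs the interaction, which is how far the DM effect lies from both single effects added up, was -0.82 (SE 0.23, adjusted p = 0.065). This value carries the selection of the list, which favours a negative interaction. Of the 26 pairs, 21 were at 5 in Flt3-ITD, against 7 in WT, 11 in Npm1c and 10 in DM. The highest scoring pair lay 464 kb away and did not separate the groups, with 14.6 and 6.03 in WT, 9.65 and 7.60 in Npm1c, 8.08 and 9.24 in Flt3-ITD, 7.36 and 11.5 in DM, and 5.99 and 5.79 in neutrophils.

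Ifih1 (MDA5, a sensor of long double-stranded RNA) had 3 pairs, 295 to 938 kb away. Eif2ak2 (PKR, the kinase that stops translation on double-stranded RNA) had 4, all 691 to 706 kb away. Eif2ak2 scored 2.40 and 1.57 in WT, 2.20 and 2.39 in Npm1c, 2.77 and 2.75 in Flt3-ITD, and 2.79 and 2.96 in DM, as mean log2(score + 1) over its 4 pairs. Its Flt3-ITD minus WT difference on 3 outside pairs was 0.97 (SE 0.36, adjusted p = 0.15). Without WT replicate 1 it was 1.60 with an adjusted p of 0.026, so that 1 library decides this call. Trim25, the ubiquitin ligase that activates RIG-I, had 8 pairs, all within 20.7 to 64.7 kb on the high-coordinate side, towards and past the end of its own gene. Its closest ran from the promoter to the other end of Trim25. The highest, 22.6 kb away, scored 6.403 and 6.95 in WT, 7.48 and 7.34 in Npm1c, 7.77 and 7.85 with Flt3-ITD, and 5.98 and 12.5 in DM. The values over its 8 pairs were 2.62 and 2.35 in WT, 2.72 and 2.81 in Npm1c, 2.87 and 2.69 in Flt3-ITD, and 2.45 and 3.28 in DM, where the 2 replicates lay further apart than in any other group. No contrast of Ifih1 or Trim25 passed the test.

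Of the regulatory factors, Irf7, the master factor of type I interferon induction, shares its fragment with Phrf1 (chr7:141262342-141267776). None of its 11 pairs was at 5 in both WT libraries, against 2 for Npm1c, 7 for Flt3-ITD and 3 for DM. Mean log2(score + 1) over all 11 was 1.99 and 2.24 in WT, 2.12 and 2.33 in Npm1c, 2.81 and 2.56 in Flt3-ITD, and 2.21 and 2.47 in DM, so that Flt3-ITD was above every other library. On the 5 pairs that other groups had brought in, the Flt3-ITD minus WT difference shrank to 0.34 (SE 0.25, adjusted p = 0.43) and the groups overlapped. Its highest pair, with the fragment of Taldo1 at 127 kb, had 3.95 and 7.06 in WT and 9.04 and 5.85 in Flt3-ITD.

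Irf9, the DNA-binding partner of Stat2, had 3 pairs on a fragment shared with Rnf31. All 3 were at 5 only in DM, where the mean was 2.81 and 2.90, against 1.56 to 2.38 in the other 6 libraries. With its pairs listed through DM alone, no DM minus WT test free of that selection was possible. Its interaction was 0.82 in limma (SE 0.37, adjusted p = 0.22), on the same 3 pairs, so that the selection favours a positive value. Irf1, the factor for interferon gamma responses, had 1 pair in HSPCs, at 5 in DM alone, and a different one in neutrophils. Stat2 was reached only through the end of the gene, on a fragment shared with Il23a. Its 1 pair was at 5 in WT and Npm1c, at 2.81 to 3.11 on the log2(score + 1) scale, and lay at 1.81 to 2.53 in the 4 libraries that carry Flt3-ITD. The pair was listed through WT and Npm1c alone, which favours those libraries. Because 1 pair is below the minimum of 3, the fragments of Irf1 and Stat2 were not tested.

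The antiviral effectors included the 1 fragment that passed a test. Rsad2 (viperin, an enzyme that makes a chain-terminating nucleotide) lies at chr12:26454718-26458595, and all 8 of its pairs reached between 1135 and 1804 kb away on one side. Such distances were rare, with 9 of the 233 pairs (3.86%) and 5.1% of all pairs over 1 Mb. Over the 8 pairs, mean log2(score + 1) was 0.72 and 1.24 in WT, 1.79 and 1.48 in Npm1c, 2.01 and 2.61 in Flt3-ITD, and 0.98 and 1.37 in DM. Both single mutants lay above WT in every library, and DM overlapped with WT. On the 6 pairs listed through Npm1c or Flt3-ITD, however, DM lay above WT, at 1.16 and 1.31 against 0.085 and 0.70, a difference of 0.84 (SE 0.26, adjusted p = 0.10) that did not pass. The interaction was -1.79 (SE 0.37, adjusted p = 0.029 in limma). This value carries the selection of the list, since 2 of the 8 pairs were listed through WT, 2 through Npm1c, 4 through Flt3-ITD and 0 through DM, and pairs listed through a single mutant alone push the interaction down. It was the 1 of 17 interferon fragments to pass in this contrast. Of all 7678 fragments 4.62% passed lower, 0.482% higher and 5.11% in either direction. The test passed without WT replicate 2 or without either Npm1c replicate, and did not pass without WT replicate 1 (adjusted p = 0.066), Flt3-ITD replicate 1 (0.056) or 2 (0.11), or DM replicate 1 (0.090) or 2 (0.069).

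Single Rsad2 pairs were variable. Of its 64 scores, 18 were exactly 0 (28.1%), against 23.9% over all scores of listed pairs beyond 1 Mb and 2.2% over all scores. Each of the 8 was at 5 in 1 group only. The pair 1229.9 kb away scored 0.21 and 0 in WT, 0.90 and 0.46 in Npm1c, 7.71 and 5.67 in Flt3-ITD, and 0 and 1.07 in DM. It rose in Flt3-ITD by 2.79 (SE 0.41, adjusted p = 0.035), the 1 interferon pair of 214 tested to pass in that contrast, beside 0.568% of all pairs in either direction and 0.477% higher. It lost the call with quantile normalization (adjusted p = 0.092) and in each fit that left out 1 WT or Flt3-ITD library (adjusted p from 0.085 to 0.25). Its listing came through Flt3-ITD itself. The highest pair on average, 1804 kb away, scored 0.046 and 8.12 in the WT replicates.

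The neighbour of Rsad2, the nucleotide kinase gene Cmpk2, which is induced with it, had its own fragment with 3 pairs, also 1637 to 1982 kb away on the same side. No other end was shared, and the nearest lay 81.1 kb apart. The farthest Cmpk2 pair scored 0 and 0 in WT, 0.39 and 0.35 in Npm1c, 7.53 and 8.12 in Flt3-ITD, and 0 and 0 in DM. In limma it rose in Flt3-ITD by 3.14 (SE 0.28, adjusted p = 0.0086), and the fragment's interaction was -2.33 (SE 0.44, adjusted p = 0.023). All 3 pairs were at 5 in Flt3-ITD, and only 1 of them was at 5 in another group (DM), so both values come from pairs listed for being high in Flt3-ITD.

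**Figure D2:**
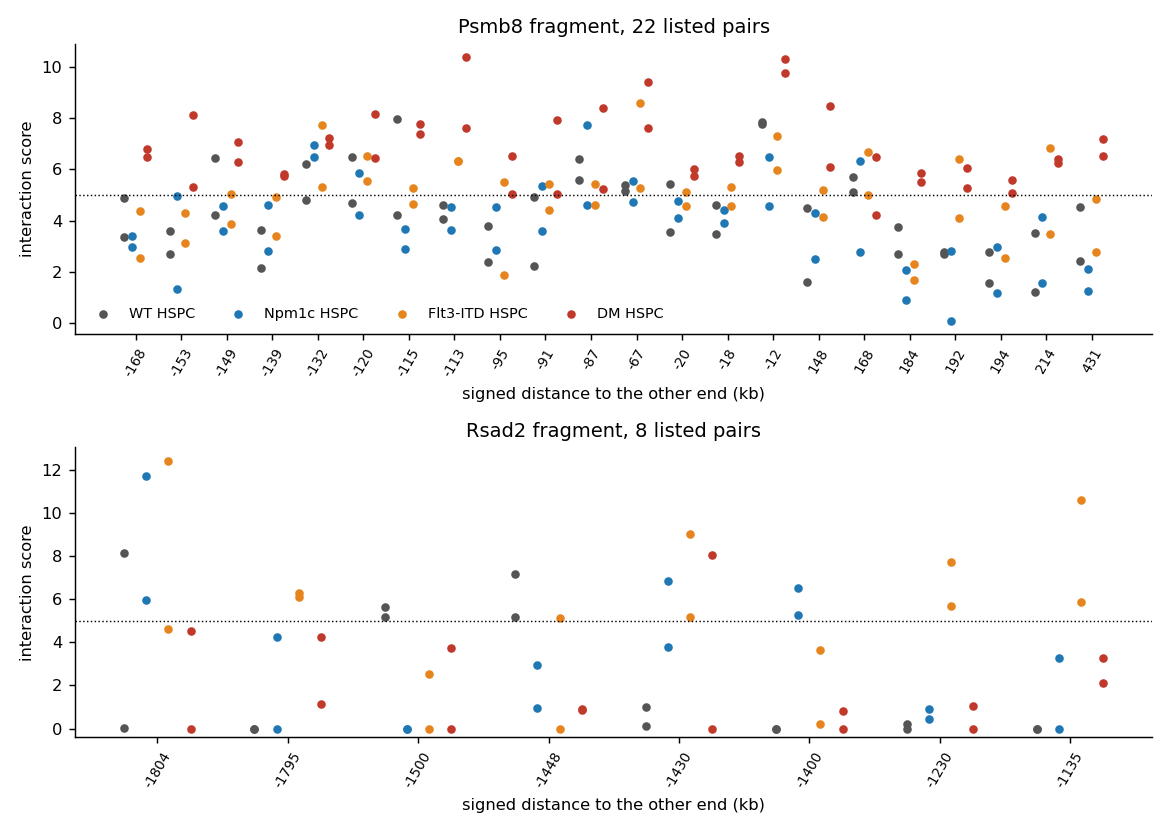
Interaction score (vertical axis) of each listed pair of the Psmb8 fragment (top, 22 pairs) and the Rsad2 fragment (bottom, 8 pairs), placed by the signed distance to the other end in kb, with 1 point per HSPC library and a dotted line at 5. For Psmb8, both DM points lie above both WT points in 17 of 22 pairs, and for Rsad2 the 1229.9 kb pair has its 2 Flt3-ITD points at 7.71 and 5.67 with the other 6 at 1.07 or less.

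The Ifit genes encode proteins that bind foreign RNA, and they sit together on chromosome 19. Ifit2 had 9 pairs, 5 of them 297 to 345 kb away on the side of Acta2 and 4 of them 92.6 to 100.6 kb away on the side of Ifit1. Its pair with the fragment that holds the end of Ifit1, 96.5 kb away, scored 5.93 and 5.94 in WT, 4.47 and 4.17 in Npm1c, 3.95 and 3.79 in Flt3-ITD, and 2.31 and 2.48 in DM. The replicates lay close together and WT was above every mutant library. Over all pairs, both libraries of a mutant lay below both WT libraries in 16.7% for Npm1c, 14.8% for Flt3-ITD and 19.4% for DM. For the pair of Ifit2 with Ifit1, the DM minus WT difference in limma was -1.03 (SE 0.28), with an unadjusted p of 0.0067 and an adjusted p of 0.13. WT itself had listed this pair. Over the whole Ifit2 fragment no contrast passed. Its highest pair, 307.9 kb away, had 7.03 and 5.95 in WT and 4.95 and 8.90 in DM, which overlap.

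Ifit1, on a fragment shared with Ifit1bl2, had 4 pairs in HSPCs, and 2 of their other ends, near Acta2, were also contacted by Ifit2. All 4 were at 5 in DM and none in WT or Flt3-ITD. The mean was 1.93 and 1.70 in WT, 1.79 and 2.67 in Npm1c, 2.30 and 2.60 in Flt3-ITD, and 2.95 and 3.00 in DM. The DM values carry the selection, as all 4 pairs were listed through DM. Only 1 was also listed through Npm1c, so no DM minus WT test free of that selection was possible. Flt3-ITD minus WT was 0.63 (SE 0.29, adjusted p = 0.21). In neutrophils Ifit1 also had 4 pairs, with scores from 5.81 to 10.8, and none of them was a pair of the HSPC list. These reached 80.3 to 110.8 kb, towards Ifit2 and Lipa.

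Isg15, the ubiquitin-like modifier, could hardly be measured in the ordered genome. Of its 21 HSPC pairs, 19 led to unplaced scaffolds, 15 of them to GL456216_random, a chromosome 4 scaffold, and 4 to GL456359. Scores there reached a mean of 138.5 over the 8 libraries. Isg15 was therefore not tested. As an other end its fragment was contacted by 6 promoters 181 to 369 kb away, and all 6 scores were exactly 0 in WT replicate 1 and in Npm1c replicate 2, with no 0 in the other 6 libraries.

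Isg20, an RNA exonuclease that shares its fragment with Aen, had 8 pairs. Mean log2(score + 1) was 2.85 and 2.54 in WT, 2.63 and 2.99 in Npm1c, 2.60 and 2.31 in Flt3-ITD, and 2.04 and 2.23 in DM, with DM below all other libraries. On 7 outside pairs DM minus WT was -0.47 (SE 0.20, adjusted p = 0.21). Its pair with Mrpl46 and Mrps11, 132 kb away, held in every library, at 5.60 to 9.36 in HSPCs and at 8.63 and 10.6 in neutrophils. Oasl2 and Oas2 with Oas3 (makers of the 2-5A signal or their relatives), Rtp4 (a receptor chaperone) and Xaf1 (an apoptosis factor) had 1 pair each, 296 to 462 kb away. Oas3 and Xaf1 were reached through the end of the gene. For Oas2 and Rtp4 it was not known whether the fragment held the promoter end. The pair of Oasl2 was at 5 in DM only, those of Oas2 with Oas3 and of Xaf1 in WT only, and that of Rtp4 in WT and Npm1c. The Xaf1 pair was at 2.67 and 2.66 in WT on the log2 scale and at 0 to 2.42 in the 6 mutant libraries. It was listed through WT alone, which favours WT.

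The immunity-related GTPases gave the richest contacts. Irgm1, which governs the other members of its family on vacuoles and lysosomes, lies at chr11:48866300-48874820. Its 59 pairs were a number reached by only 70 of 12186 baits (0.574%). Of these, 55 lay 208.96 to 407 kb away on one side, and the 10 highest lay within 213 to 241 kb. Within that stretch is Ifi47, another interferon-induced GTPase, 228 kb away. The pair of Irgm1 with Ifi47 scored 18.2 and 11.1 in WT, 11.5 and 25.2 in Npm1c, 20.1 and 20.2 in Flt3-ITD, 22.5 and 28.2 in DM, and 18.98 and 11.4 in neutrophils. It was well over 5 in all 10 libraries, and only Flt3-ITD and DM lay above both WT values. DM minus WT was 0.78 on the log2 scale with an adjusted p of 0.35. The pair with the highest mean, 222 kb away, scored 13.5 and 26.3 in WT and 15.3 and 10.2 in neutrophils.

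Over its 44 outside pairs Irgm1 had 3.34 and 2.95 in WT, 3.14 and 3.34 in Npm1c, 3.43 and 3.36 in Flt3-ITD, and 3.27 and 3.14 in DM. The Flt3-ITD minus WT difference of 0.25 (SE 0.17, adjusted p = 0.41) was no larger than the gap between the WT replicates. Of its pairs, 17 were at 5 in all 4 groups and 18 were also in the neutrophil list. On the 14 pairs at 5 in both cell types, WT neutrophils had 3.65 and 3.40 and WT HSPCs 3.90 and 3.57, a difference of -0.21 (SE 0.16, adjusted p = 0.49).

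**Figure D3:**
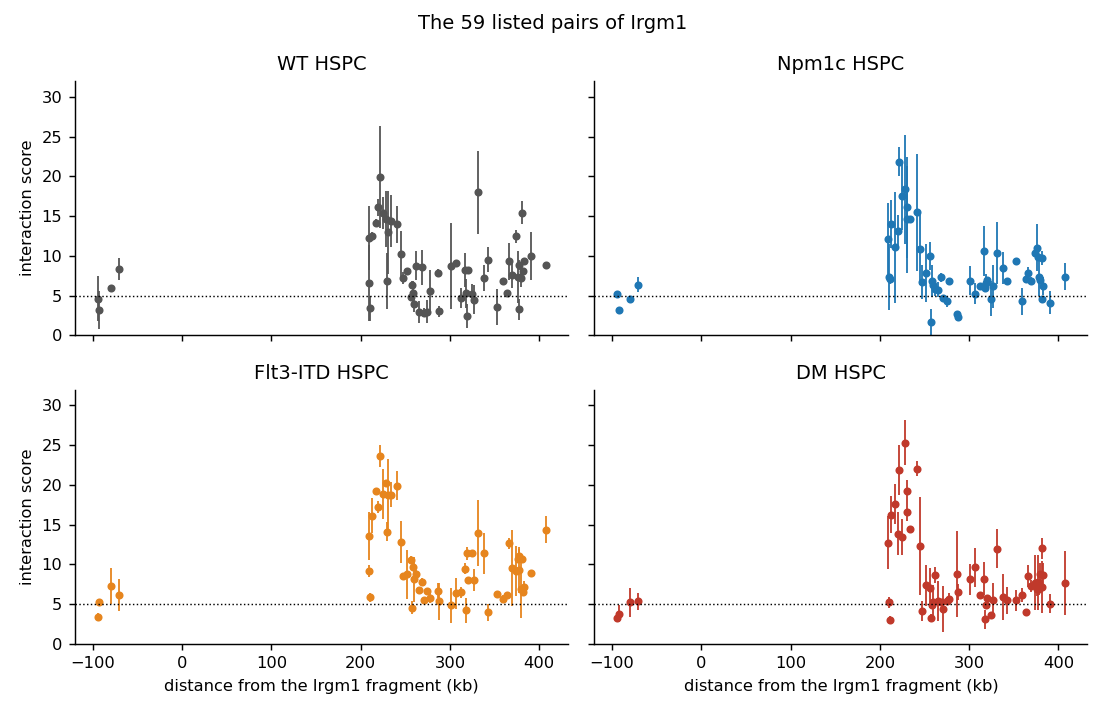
Interaction score (vertical axis) of the 59 listed pairs of Irgm1 against the distance from its fragment in kb (horizontal axis), 1 panel per HSPC group. Points are means of 2 replicates, lines join the replicates and the dotted line is at 5. The highest group mean lies at 222 kb in WT, Npm1c and Flt3-ITD and at 228 kb in DM (25.3).

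Igtp (Irgm3) and Irgm2, whose promoter letters are nearly the same, lie side by side on chromosome 11. The fragment at chr11:58194474-58202729 holds the promoter of Igtp and had 18 pairs. A second, at chr11:58203313-58220175, holds the end of Igtp and the promoter of Irgm2 and had 4. All 4 other ends of the second were also other ends of the first. Both contacted a fragment with no gene end 25.0 kb before the Igtp fragment. For Igtp that pair scored 25.1 and 34.3 in WT, 36.0 and 26.5 in Npm1c, 32.9 and 31.4 in Flt3-ITD, 24.4 and 15.8 in DM, and 16.6 and 12.1 in neutrophils. Neutrophils lay below both WT HSPC libraries, by -0.999 on the log2 scale (SE 0.33, unadjusted p = 0.018, adjusted p = 0.17). On the Irgm2 side all 4 pairs were at exactly 0 in Npm1c replicate 1, which 28 of 6455 fragments with at least 4 pairs (0.434%) shared in that library. In the other 7 libraries between 0 and 12 such fragments were at 0.

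The pair of Igtp with the fragment of 2310033P09Rik, 1011 kb away, scored 6.98 and 19.3 in the WT libraries, 1.05 and 3.14 in those of Npm1c, 7.16 and 8.61 in those of Flt3-ITD, and 0 and 0 in DM. The 4 libraries with Mx1-Cre lay below the 4 without. The pair fell in DM by 3.67 (SE 0.51, adjusted p = 0.029), the 1 interferon pair of 214 to pass, beside 0.576% of all pairs in either direction, 0.156% lower and 0.42% higher. It also fell in Mx1-Cre carriers against non-carriers, by 2.64 (SE 0.36, adjusted p = 0.043), again 1 of 214, beside 0.37% of all pairs and 0.178% lower. Neither call remained when any 1 of the libraries compared was left out, with adjusted p from 0.052 to 0.17 for DM. WT and Flt3-ITD had listed this pair. Over 15 outside pairs the Igtp fragment was at 3.00 and 2.98 in WT and 2.73 and 2.35 in DM, a difference of -0.45 (SE 0.18, adjusted p = 0.19).

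The guanylate-binding proteins, large GTPases that coat pathogen vacuoles, contacted one another. Gbp2, Gbp3 and Gbp7 had 5, 7 and 2 pairs in a chromosome 3 cluster that also holds Gbp5. The strongest joined Gbp2 to Gbp5 over 126 kb, with 5.65 and 10.3 in WT, 20.1 and 17.3 in Npm1c, 17.2 and 23.4 in Flt3-ITD, 11.6 and 17.05 in DM, and 8.63 and 13.97 in neutrophils. All 6 mutant HSPC libraries lay above both WT libraries. Over all pairs, both libraries of a mutant lay above both WT libraries in 26.3% for Npm1c, 34% for Flt3-ITD and 32.6% for DM. For Gbp2 with Gbp5, Flt3-ITD minus WT was 1.28 on the log2 scale in limma (SE 0.38, unadjusted p = 0.010, adjusted p = 0.22), which did not pass. Gbp2 with Gbp7, 93.0 kb away, scored 5.44 and 6.49 in WT, 6.01 and 14.2 in Npm1c, 15.4 and 13.0 in Flt3-ITD, 11.4 and 9.57 in DM, and 5.13 and 6.43 in neutrophils. Both pairs were listed through outside groups as well, so they also stand among the pairs free of selection, with adjusted p of 0.30 and 0.37.

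Gbp2 with Gbp3 lay between 4.35 and 10.2 in all HSPC libraries, and Gbp3 with Gbp7 was at 5 in DM only. Gbp3 and Gbp5 were listed from both ends. Read from the Gbp3 side the scores ran from 5.55 to 11.3 in HSPCs and were 9.83 and 9.51 in neutrophils, and read from the Gbp5 side they ran from 4.14 to 7.68 and were 8.06 and 9.76. The Gbp2 fragment as a whole had 2.27 and 2.84 in WT, 2.98 and 3.07 in Npm1c, 3.31 and 2.95 in Flt3-ITD, and 3.41 and 3.19 in DM. Its differences from WT were 0.57 (SE 0.24, adjusted p = 0.19) for Flt3-ITD on 5 pairs and 0.68 (SE 0.26, adjusted p = 0.17) for DM on 3. Gbp3 showed no such separation, with 2.97 and 2.44 in WT and 2.95 and 2.91 in DM.

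**Figure D4:**
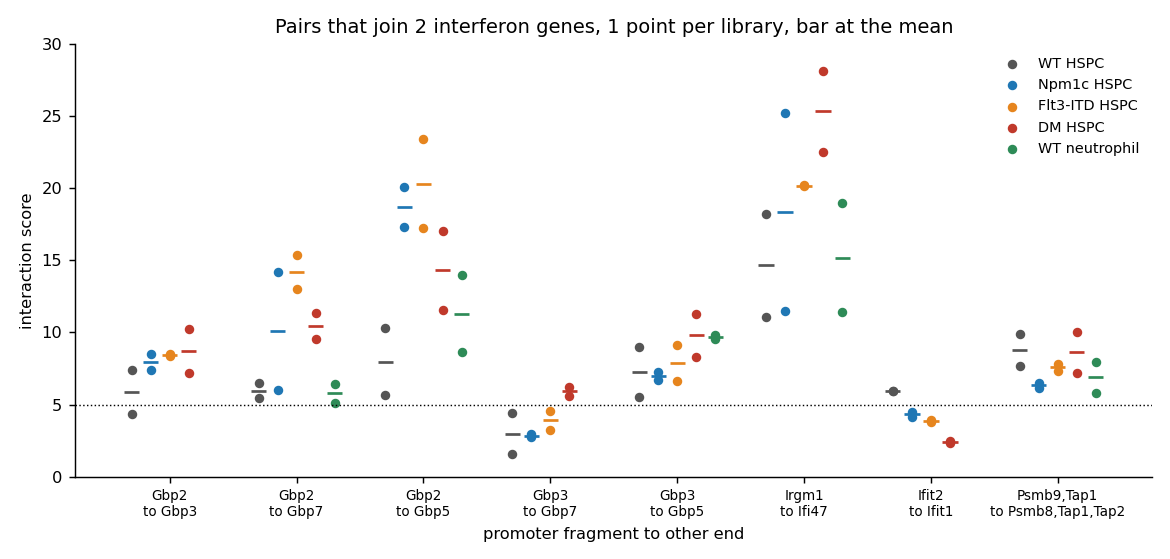
Interaction score (vertical axis) of 8 pairs that join interferon genes (horizontal axis, promoter fragment and other end), with 1 point per library, a bar at the mean of 2 replicates and a dotted line at 5. Groups with no point are not listed for that pair. Gbp2 to Gbp5 has all mutant HSPC points above both WT points, and Ifit2 to Ifit1 has them all below.

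Antigen presentation is represented by Psmb8 and Psmb9, subunits of the immunoproteasome, and by Tap1, the peptide transporter, within the major histocompatibility complex on chromosome 17. Psmb9 and Tap1 share a promoter fragment, and the fragment at chr17:34195308-34211953 holds the promoter of Psmb8, the end of Tap1 and an end of Tap2. The latter had 22 pairs, of which 4 were at 5 in both libraries for WT, 1 for Npm1c, 6 for Flt3-ITD and 21 for DM, and 15 were at 5 in DM alone. In 17 of the 22 both DM scores exceeded both WT scores, beside 32.6% of all pairs. Over the 22 pairs the mean was 2.43 and 2.21 in WT, 2.15 and 2.19 in Npm1c, 2.55 and 2.45 in Flt3-ITD, and 2.92 and 2.95 in DM, which was above all others. This reading carries the selection, as most pairs were listed through DM. With all listed pairs DM minus WT was 0.62 (adjusted p = 0.018). On the 6 pairs that Npm1c or Flt3-ITD had brought in, the values were 2.70 and 2.73 in WT and 3.17 and 3.07 in DM, and the difference was 0.41 (SE 0.18, adjusted p = 0.21). The groups still did not overlap, but the difference no longer passed.

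The highest pair of the Psmb8 fragment lay 11.6 kb away, with 7.86 and 7.79 in WT, 4.59 and 6.48 in Npm1c, 5.99 and 7.29 in Flt3-ITD, and 10.3 and 9.77 in DM. The fragment of Psmb9 and Tap1 contacted that of Psmb8 over 14.9 kb at 7.68 and 9.89 in WT, 6.52 and 6.16 in Npm1c, 7.35 and 7.79 in Flt3-ITD, 7.18 and 10.1 in DM, and 7.95 and 5.82 in neutrophils. The pair was above 5 in all 10 libraries. These neighbours shared 4 other ends, which hold Brd2, Col11a2 and Ring1 among others. The Psmb9 fragment, with 5 pairs, did not follow the DM pattern, at 2.52 and 2.65 in WT and 2.61 and 2.46 in DM. The Psmb8 fragment had no pair in the neutrophil list. Cxcl10, a chemokine that attracts T cells, had its 1 pair in neutrophils only, 278 kb away at 5.74 and 6.08, and its fragment was an other end of the Nup54 fragment, 84.0 kb away, in HSPCs at 7.01 to 21.1.

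**Figure D5:**
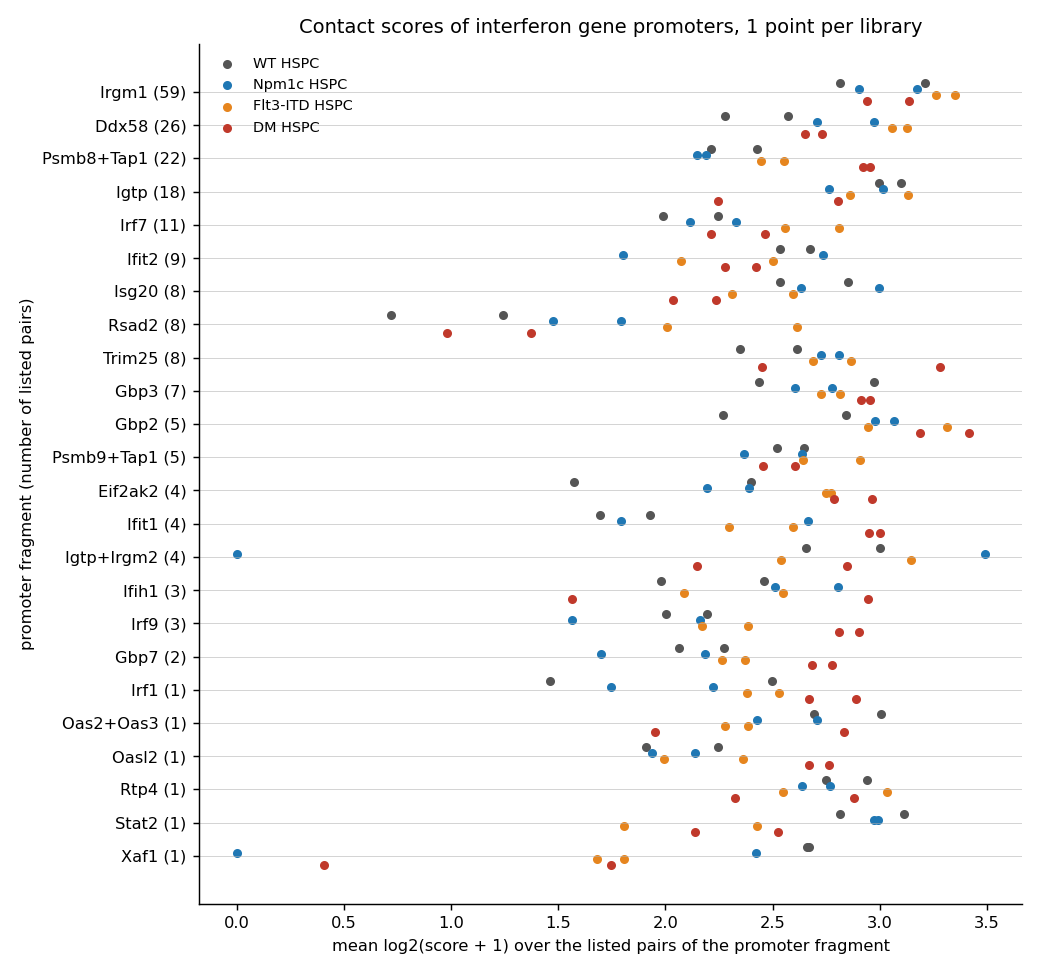
Mean log2(score + 1) over all listed HSPC pairs (horizontal axis) of each interferon promoter fragment (vertical axis, number of listed pairs in brackets), with 1 point per library. Isg15 is left out because nearly all its pairs lie on unplaced scaffolds. Rsad2 has the lowest WT values (0.72 and 1.24) among fragments with at least 3 pairs, and Igtp+Irgm2 has 1 Npm1c library at 0.

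Across the set, no fragment passed in any of the 3 comparisons with WT. For Npm1c minus WT, 0 of 16 fragments passed in limma, where 0% of 6318 did, and 2 had an unadjusted p under 0.05, beside 11% of all. The median difference was -0.0074, against 0.13 over all fragments. Both Npm1c libraries lay above both WT libraries in 4 of 16 and below in 1, beside 28.1% and 7.63% of all fragments. For Flt3-ITD minus WT, 0 of 14 passed, beside 0.613% of 6198, and 4 had an unadjusted p under 0.05, beside 22.9%. The median was 0.21, against 0.24. Both Flt3-ITD libraries lay above both WT libraries in 8 of 14 and below in 1, beside 46.3% and 5.86% of all fragments. For DM minus WT, 0 of 14 passed, beside 2.61% of 5866, 5 had an unadjusted p under 0.05, beside 22.1%, and the median was 0.073, against 0.10. Both DM libraries lay above both WT libraries in 4 of 14 and below in 2, beside 33.1% and 16.5%. These counts follow those of all fragments. Quantile normalization, which forces equal distributions on the libraries, took the median over all fragments to -0.013, -0.033 and -0.083 and that of the interferon genes to -0.15, -0.033 and -0.15. The sign of the interferon gene median turned for Flt3-ITD and DM and was negative under both scalings for Npm1c.

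Over single pairs, 0 of 214 passed for Npm1c, beside 0.31% of all, with 19 at an unadjusted p under 0.05, beside 12.5%. For the interaction 0 of 214 passed, beside 0.564% in either direction and 0.42% lower, with 28 at an unadjusted p under 0.05, beside 14.4%. Carriers of Mx1-Cre against non-carriers gave 0 of 17 fragments, beside 0.026%, with 1 at an unadjusted p under 0.05, beside 15.9% (Ifit1, 0.47, SE 0.21, adjusted p = 0.30). All 4 pairs of Ifit1 were listed through DM, a carrier group, and none through WT or Flt3-ITD, which favours the carriers. The median difference was 0.0075 over the 17 fragments and 0.031 over all 7678. In none of the 17 did the 4 carriers lie apart from the 4 non-carriers, beside 1.42% of all fragments with carriers higher and 1.5% with carriers lower. For neutrophils against WT HSPCs, 0 of 2 fragments passed, beside 3.43%, with 0 at an unadjusted p under 0.05, beside 21.7%. Of 37 pairs 0 passed, beside 0.206%, with 6 at an unadjusted p under 0.05, beside 19.9%. Of the 59 neutrophil pairs, 46 (78%) were also in the HSPC list, against 55% over all neutrophil pairs. At 5 in both WT HSPC libraries were 34 (57.6%), against 31%. The share of 78% rests largely on the Irgm1 and Isg15 fragments. Irgm1 held 19 of the 59 pairs and 18 of the 46, and Isg15 held 9 of each, all on scaffolds.

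No listed bait was found for 10 of the genes: Ifit3, Mx1, Mx2, Oas1a, Oasl1, Usp18, Iigp1, Ifi27, Ifi35 and Ifi44. In the gene table used Mx1 and Mx2 stand as transcribed pseudogenes. Among the 10, Oasl1, Usp18 and Ifi35 appeared as other ends. Oasl1 was contacted by Mlec, Srsf9, Pla2g1b and Usp30, and the Usp30 pair scored 2.85 and 6.32 in WT, 6.44 and 7.74 in Npm1c, 6.25 and 5.61 in Flt3-ITD, and 0 and 0 in DM. The others were not at 0 in DM, with 7.28 and 6.62 for Mlec, 1.68 and 3.03 for Srsf9, and 0.53 and 3.41 for Pla2g1b. Usp18, which removes Isg15 from proteins, was contacted by the fragment of Atp6v1e1 and Bcl2l13, and Ifi35 by that of Brca1 and Nbr1.

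Of 99 further genes of the pathway, 59 had a listed bait, among them 14 of 15 receptors and signalling genes with 154 pairs, 6 of 14 sensors and adaptors, 6 of 10 regulatory factors, 22 of 46 other induced genes and 8 of 9 antigen presentation genes. Against WT, 0 of 34 fragments passed for Npm1c and 0 of 32 for Flt3-ITD, with 4 and 6 at an unadjusted p under 0.05, beside 11% and 22.9% of all fragments. For DM 1 of 29 rose, beside 2.17% of all. That was Zbp1, a sensor of Z-form nucleic acid, at 1.04 (SE 0.23, adjusted p = 0.049). In the interaction 1 of 40 passed, the Cmpk2 fragment described above, beside 4.62% of all lower. Of 516 pairs, limma gave 1 that rose in Npm1c (Erap1, a peptide-trimming enzyme, by 3.56, adjusted p = 0.017), beside 0.225% of all pairs higher. It gave 1 in Flt3-ITD (Cmpk2), beside 0.477%, and 1 in DM (Ifnar1, by 2.44, adjusted p = 0.024), beside 0.42%. These tests and those of the interaction used all listed pairs, which favours the group that brought a pair in. With outside pairs alone, 0 of 66628 pairs of the series passed for Npm1c, 12 of 63320 for Flt3-ITD and 1 of 61192 for DM. The interaction was negative in 2 of 516, the same pair of Erap1 (-6.03, adjusted p = 0.029) and that of Cmpk2 (-3.59, adjusted p = 0.033), beside 0.42% of all lower. The Cmpk2 pair was also the 1 of 516 lower in Mx1-Cre carriers in limma (-1.34, adjusted p = 0.047), beside 0.178%. That difference came from the Flt3-ITD libraries alone (7.53 and 8.12), through which the pair was listed. The carriers, at 0.39 and 0.35 in Npm1c and 0 and 0 in DM, were not below WT, at 0 and 0. In neutrophils 1 of 122 pairs was higher than in WT HSPCs in limma, that of the phosphatase gene Ptpn6 (2.98, adjusted p = 0.025), beside 0.206%. Pairs in this test were listed for a high neutrophil score and did not need one in WT HSPCs, which favours that direction. Of all 14051 pairs, 29 passed higher and 0 lower. Irf2bp2, a corepressor, was the 1 of 7 fragments that rose in neutrophils against WT HSPCs, by 0.56 (SE 0.14, adjusted p = 0.043), beside 2.17% of all higher. Pairs also joined genes of the pathway to each other. Ifnar1 with Ifnar2, the chains of the type I receptor, scored 7.88 and 3.50 in WT, 4.41 and 5.83 in Npm1c, 6.36 and 5.67 with Flt3-ITD, and 7.13 and 4.03 in DM over 114.6 kb, with all groups overlapping. Ifitm6 with Ifitm2, members of a family that blocks virus entry, scored 13.1 and 12.9 in WT, 10.4 and 12.4 in Npm1c, 22.3 and 23.6 with Flt3-ITD, 12.6 and 16.1 in DM, and 6.79 and 15.8 in neutrophils over 63.2 kb, highest with Flt3-ITD.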

How the data were processed

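Promoter-capture Hi-C of 8 HSPC and 2 neutrophil libraries was deposited as lists of fragment pairs on mm10, per the submitters' processing notes. Per the labels' protocols, cells were fixed in 1% formaldehyde for 10 minutes, and HindIII fragments of 22047 promoters were captured with 39684 probes. The authors deposited 1 score per pair and library. Its definition, the aligner, the caller, its filters and the depth are not given in the sources used here. Per the file headers, another column gives the distance in bp, empty between chromosomes.

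Genes were assigned by the start or end in the GRCm38.p6 RefSeq table. Tests used 88421 HSPC pairs, without 203 that involve Y or scaffolds. Log2(score + 1) per pair, and its mean per fragment with at least 3 pairs, was fitted with limma 3.58.1 in R 4.3.3 (8 HSPC libraries in 1 fit, or the 4 WT libraries, two-sided, Benjamini-Hochberg over all fragments or pairs, threshold 0.05), checked on simulated data. Comparisons with WT share its 2 libraries. An exact test of 2 against 2 cannot go below p = 0.333, so only limma was used. Fragments were compared on pairs listed through outside groups. The genes and lists were chosen with earlier results of these data known. By rule, the 10 fragments with most pairs, their highest pairs, any fragment or pair that passed and pairs joining interferon genes were to be named. Of the pairs joining other pathway genes only 2 are given, and these and further values (Eif2ak2, Gbp2, Ifit1, Irf9, Oasl1, Stat2, Xaf1) were chosen after they were seen. Alternatives were quantile normalization, a pseudocount of 5, other minimum numbers of pairs, all listed or only outside pairs, no variance trend, a replicate block and leaving out each library. The numbers did not pair the libraries (correlations of deviations from -0.012 to 0.061).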

Additional observations from a re-analysis of the deposited data

Results flagged for a closer look

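The interaction of Npm1c and Flt3-ITD at the Rsad2 fragment, -1.79 on the log2 scale, differed between the genotype backgrounds by limma's test of the difference itself (adjusted p = 0.029), on all 8 listed pairs, with the selection of those pairs not removed.

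The pairs of Isg15 to unplaced scaffolds were outside the tested data. Mean log2(score + 1) over the 19 pairs was 4.20 and 4.10 in WT, 3.62 and 5.51 in Npm1c, 4.78 and 5.51 with Flt3-ITD (mean 5.14), and 3.64 and 3.66 in DM. The Flt3-ITD mean stood above both WT libraries and the DM libraries stood below them. Of these pairs, 14 were at 5 in both WT replicates, 14 for Npm1c, 18 for Flt3-ITD and 11 for DM, and 9 were also listed in neutrophils at scores from 6.04 to 107.6. The same scaffold GL456216_random took 142 of the 203 pairs that involve Y or scaffolds, from 19 baits.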

How the results depend on the processing

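With 2 libraries a group and unknown depth, only large differences could pass. The count of 28 genes with a listed bait was 23 with promoter ends alone. Fragments called against WT numbered 1 for Flt3-ITD with at least 10 pairs and 2 with all listed pairs, and 2 for DM with all listed pairs, against 0 as reported. For the interaction, 2 were called with quantile normalization and 2 with a pseudocount of 5, against 1. The single called pair of Flt3-ITD became 0 with the replicate block and 0 with outside pairs alone, that of DM 0 with a pseudocount of 5 and 0 with outside pairs alone, and that of the Mx1-Cre contrast 0 with a pseudocount of 5 and 0 with the replicate block. The block kept the interaction call of Rsad2 (adjusted p = 0.027) and the Igtp pair in DM (adjusted p = 0.034), and moved the Rsad2 pair in Flt3-ITD to an adjusted p of 0.067. Leaving out 1 library at a time gave 0 to 1 called fragments for Npm1c, 0 to 1 for Flt3-ITD, 0 to 2 for the interaction and 0 to 1 for the Mx1-Cre contrast, 0 called pairs for Flt3-ITD, DM and the Mx1-Cre contrast, and 0 to 1 for neutrophils. Over all fragments, calls went from 38 to 454 for Flt3-ITD and from 153 to 1311 for DM with all listed pairs. Over all pairs, leaving out 1 library took the calls from 502 to between 0 and 3 for Flt3-ITD and from 509 to 0 for DM. The cause of these changes was not tested. No difference of a single named fragment or pair that was recomputed changed sign, while the medians over the interferon fragments for Flt3-ITD and DM did with quantile normalization (-0.033 and -0.15).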
